A study of Mus musculus with 7 samples.

Results

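The genes described here encode 10 regulators that store maternal mRNAs in the oocyte and control when they are translated: Dazl, Cpeb1, Cpeb4, Ybx2, Zar1, Zar1l, Patl2, Lsm14b, Pabpc1l and Eif4enif1. They were chosen by name, as 10 of the 18951 gene symbols in the deposited table, and all 10 were found and passed the filter on low values. The list was selected on the difference in normalized counts between null and wild-type (WT) pools as well, since Dazl had been seen to be lower in null pools. Differences between these groups are therefore given for the 10 genes as descriptions with their errors, and the tests behind them support nothing about the choice of genes.

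RNA was sequenced from ovulated mouse oocytes in 4 Nlrp2-null pools and 3 WT pools. All came from C57BL/6 females aged 4 weeks, and each pool joined about 150 oocytes of 3 to 4 mice of 1 genotype, whose cumulus cells had been removed with hyaluronidase. Nlrp2 is a maternal effect gene of the NLR family, and the labels leave the deleted sequence of its null allele unnamed. The series asks how loss of Nlrp2 alters the oocyte transcriptome. Total RNA, about 20 ng, was amplified with oligo d(T) and random primers, so the values count amplified RNA and measure neither poly(A) tail length, protein nor translation. Whether tail length alters how much of an mRNA is amplified was not tested. In bulk pools a lower value can come from fewer cells of a type or from less RNA per cell, and these cannot be told apart.

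A full-grown oocyte stops transcription and runs on mRNAs made earlier. Many of them are kept silent with short poly(A) tails in particles of RNA and protein, and are switched on in a set order during meiotic maturation by lengthening of the tail in the cytoplasm. CPEB proteins read the cytoplasmic polyadenylation element (CPE) in the 3′ UTR, DAZL acts with CPEB1 on shared targets, 4E-T (the Eif4enif1 protein) holds the cap-binding protein eIF4E away from the initiation complex, and poly(A)-binding proteins link a lengthened tail to the initiation complex.

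CPE letters were looked for in the 3′ UTRs of the 10 mRNAs themselves, because regulators of this network can be stored under the same control. Dazl, Cpeb1 and Cpeb4 held the most, and they also had the longest 3′ UTRs of the 10. The motif searched was TTTTAT or TTTTAAT on the transcribed strand only, in the longest basic GENCODE vM21 transcript of each gene (GRCm38). TTTTAAT followed by aaa also contains the poly(A) signal AATAAA, so matches to both can overlap. All 10 genes matched a transcript. Dazl had 6 matches in 1852 bases of 3′ UTR, and 8.07% of 4376 other tested genes with a 3′ UTR at least as long had as many in their first 1852 bases, where their median was 2. Cpeb1 had 4 matches in 1315 bases (12.7% of 6096 such genes had as many, median 1). Cpeb4 had 17 in 4102 bases, as many as in 0.487% of 1027 such genes, whose median was 5. Lsm14b had 2 matches, Ybx2 and Eif4enif1 1 each, and Zar1, Zar1l, Patl2 and Pabpc1l none of these letters in annotated 3′ UTRs of 146, 14, 366 and 499 bases. Of the 8 genes with at least 200 bases of 3′ UTR, only Ybx2 had a match in the last 200 bases, where 29.8% of 12255 tested genes had one. A poly(A) signal (AATAAA or ATTAAA) stood in the last 50 bases of 7 of the 8, as in 79.6% of tested genes. Long 3′ UTRs rich in A and T hold such short words more often, and the 3′ ends used in the oocyte can differ from the annotated ones. Matches are therefore a description of the annotated sequence, not of bound sites.

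The 6 stretches of Dazl, the gene the group was listed for, and the 4 of Cpeb1, which encodes the reader of this element, are printed from GENCODE transcripts as DNA letters with the motif in capitals. Both genes lie on the minus strand, Dazl on chromosome 17 and Cpeb1 on chromosome 7. Each line gives the first base of the motif counted from 1 after the stop codon, and the position of the printed 30 bases in GRCm38.
Dazl, base 117, chr17:50281113-50281142: gattgcatagTTTTATgttaaacttgttag
Dazl, base 339, chr17:50280891-50280920: aagaaaagaaTTTTATaaacctattttgaa
Dazl, base 499, chr17:50280731-50280760: agaactgcatTTTTAATcaatggaactcaa
Dazl, base 858, chr17:50280372-50280401: gctgaaaattTTTTATgtcacttaaaagtt
Dazl, base 901, chr17:50280329-50280358: gaaaaattgtTTTTATaaaaacattcaaaa
Dazl, base 1480, chr17:50279750-50279779: gtcaaaattcTTTTATgtcaccaagtcagt
Cpeb1, base 738, chr7:81347584-81347613: agaaaaattaTTTTATttaaaactggaccg
Cpeb1, base 848, chr7:81347474-81347503: tgatagaagtTTTTAATcacagtcacagga
Cpeb1, base 992, chr7:81347330-81347359: tccttacaacTTTTATttgacgaatgtatg
Cpeb1, base 1067, chr7:81347255-81347284: tgacttttctTTTTAATttaacgattactt

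**Figure D1:**
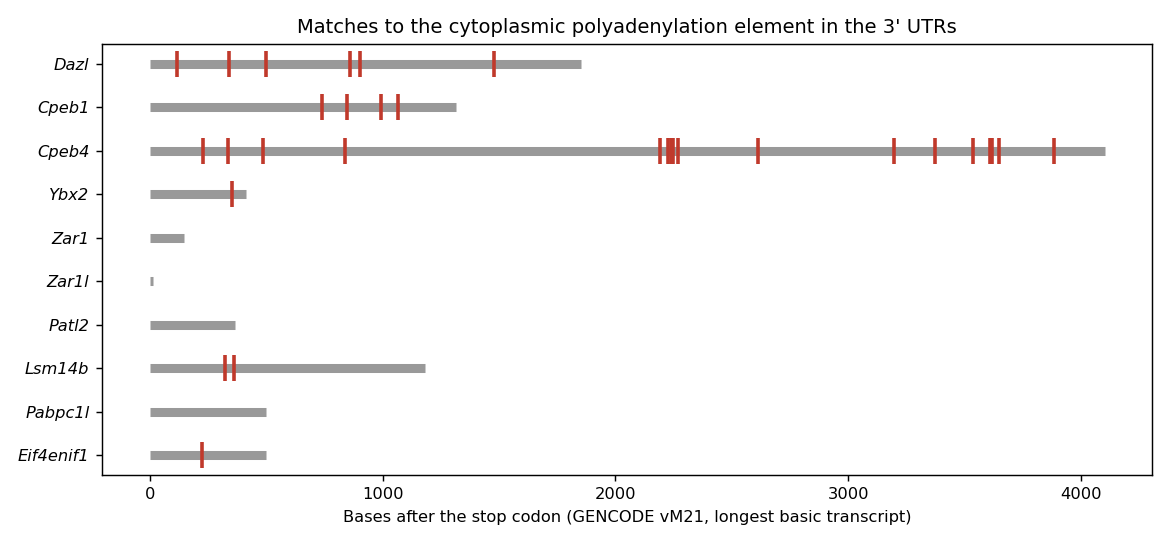
Position of each CPE match (red ticks) in the annotated 3′ UTR (grey bars) of the 10 regulators, in bases after the stop codon on the x axis. The matches of Dazl are spread over its 1852 bases and those of Cpeb4 over 4102 bases, while 4 of the genes have no tick.

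Nlrp2 itself was close to absent in the null pools. It stood at 107, 8.19, 1.96 and 63.8 normalized counts in null pools 1 to 4, against 15527, 20130 and 16792 in WT pools 1 to 3. Each pool's values rest on 71073973 to 96330083 reads, scaled by the authors with 1 factor for each pool. Over the 15071 genes tested, limma on log2 values called 10 at a false discovery rate of 0.05, edgeR 7 and DESeq2 200. The mean log2 level of 18 oocyte markers was 14.84 to 14.98 in null pools and 14.88 to 14.93 in WT pools. Of these markers Figla alone was low, averaging 43.2 normalized counts in null pools and 58.3 in WT pools, while the other markers were above 1000 in every pool. Of 30 tested cumulus and granulosa markers 24 had a fold change above 0, and their mean log2 level was 9.04 to 10.3 in null pools against 8.59 to 9.61 in WT pools, highest in null 4 and null 3. Their summed level was 139157 to 165249 in null pools and 133239 to 159753 in WT pools. A large part of these sums is Rgs2, which averaged 75532 normalized counts in null pools and 84017 in WT pools. The sums therefore say little about the other markers or about cumulus content. Areg and Amh were among the 4 of the 33 markers in the table that were at 0 in at least 1 pool. Oviduct epithelium markers summed to 425 to 2255 in null pools, highest in null 4, and to 383 to 539 in WT pools. A fold change above 0 was seen in 4 of 5 tested. Most of these sums is Epcam, Krt8 and Krt18. Pax8 went the other way, averaging 0.768 in null pools and 26.2 in WT pools, as did Foxj1 (0 and 2.22). The sums therefore say little about oviduct cells. Blood cell markers, 4 of the 6 listed being in the table, summed to 207 to 2634 in null pools, highest in null 3. In WT pools they summed to 272 to 611. Most of the highest sum is Lyz2, which reached 2427 and averaged 794 in null pools and 206 in WT pools. Cd68 went the other way (131 and 214), and 2 of the 4 tested had a fold change above 0. The part of these other cell types in the results was not tested, apart from the fit with the cumulus marker mean as a term. The labels' library numbers fall into a lower range (null 1, null 2, WT 1 and WT 2) and a higher one (null 3, null 4 and WT 3). The labels do not say what these numbers mark, so the difference within each range is given below for each of the 10 genes.

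Of the 10 regulators, Dazl had the log2 fold change farthest from 0 in the fit of all pools, and Eif4enif1 had a small one with groups that did not overlap, while the null mean was 0.982 of the WT mean for Cpeb1 and 0.979 for Cpeb4. That order was not kept without null 1, without null 3, without WT 1, with pool quality weights or within the higher library numbers, where Patl2, Zar1l or Pabpc1l lay farther from 0 than Dazl. Log2 fold changes, null minus WT, were below 0 in 8 of the 10, against 49.3% of all tested genes. Their median was -0.11, against 0.0056 over all tested genes, and all 10 lay between -0.41 and 0.16. Limma called 0 of the 10 over all genes, where percent called was 0.0664, and edgeR called 0, where it was 0.0464. DESeq2 called 1, Dazl, which was lower; 1.33% of genes were called and 0.564% were called lower. With pool quality weights limma called 1, again Dazl, where 0.451% of genes were called. An unadjusted limma p under 0.05 was reached by 2 of the 10, Dazl and Pabpc1l, both lower, as by 10.2% of all tested genes in either direction and by 4.93% with lower values. Null pools lay entirely below WT pools for 2 of the 10, as for 5.16% of tested genes, and entirely above them for 0 of the 10, as for 4.74%. Since this contrast was used in listing the genes, nothing is read from these counts.

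Dazl and the CPEB genes come first. Dazl encodes the germ cell RNA-binding protein that activates translation of maternal mRNAs during maturation. The gene lies on chromosome 17 (50279395 to 50293636, minus strand, GRCm38, GENCODE vM21). It stood at 33488, 33455, 30547 and 31518 normalized counts in null pools 1 to 4, against 47009, 41539 and 39944 in WT pools 1 to 3. Every null pool was below every WT pool, which is the difference the gene was listed for. The means were 32252 ± 1463 in null pools (SD, n = 4) and 42830 ± 3705 in WT pools (SD, n = 3), a fold of 0.753. The log2 fold change was -0.41 (SE 0.0820). Taken within the lower library numbers it was -0.40, and within the higher ones -0.36. It was -0.42 with the cumulus marker mean as a term in the fit and -0.35 without null 3 and null 4. All of these values had the same sign. Without overlap between the groups, leaving out pools or splitting by library number could not change that sign, so nothing is read from it. Over all 25 alternatives the log2 fold change ran from -0.47 (equal medians) to -0.34 (without WT 1), and most of these fits share pools.

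Cpeb1 encodes the CPE-binding protein that silences mRNAs before maturation and, once phosphorylated, starts tail lengthening on them. Cpeb1 (chromosome 7, 81347026 to 81455465, minus strand) stood at 12164, 11572, 11341 and 11341 normalized counts in null pools, against 11716, 12593 and 11131 in WT pools. The groups lay on top of each other, and the log2 fold change was -0.025 (SE 0.0893). The 95% interval of the fold ran from 0.862 to 1.121. The difference was -0.034 within the lower library numbers and 0.027 within the higher ones. Cpeb4, whose protein takes over from CPEB1 in the second meiotic division in Xenopus oocytes, stood at 15009, 12909, 13985 and 14512 in null pools, against 12651, 15041 and 15538 in WT pools. WT pools held both the lowest and the highest of the 7 values, and the log2 fold change was -0.027 (SE 0.0974, fold interval 0.850 to 1.13). Its sign also differed between the lower (0.013) and the higher library numbers (-0.13). Cpeb4 lies on chromosome 11 (31872211 to 31935634, plus strand).

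Genes for proteins of the stored particle had fold changes of both signs. Ybx2 encodes MSY2, an abundant germ cell Y-box protein that packs and stabilizes stored mRNA. Its gene (chromosome 11, 69935796 to 69941605, plus strand) was at 6582, 6748, 5533 and 8984 normalized counts in null pools, against 6443, 5699 and 6266 in WT pools. Null pools held both the lowest and the highest value, null 4 being the highest, and the groups overlapped. The log2 fold change was 0.16 (SE 0.138), and it was 0.032 without null 4 and 0.027 when the fit held the cumulus marker mean. The lower library numbers gave 0.14 and the higher ones 0.17.

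Zar1 and Zar1l encode related zinc finger proteins that bind the 3′ UTRs of stored mRNAs and are needed for their stability in mouse oocytes. Zar1 (chromosome 5, 72576806 to 72581254, minus strand) stood at 26433, 25414, 27917 and 27628 normalized counts in null pools, against 29185, 30461 and 27474 in WT pools. The values of null 3 and null 4 were above that of WT 3, and those of the other null pools were below every WT pool. The log2 fold change was -0.11 (SE 0.0795). It was -0.20 within the lower library numbers and 0.016 within the higher ones, so its sign was not the same in both. Zar1l (chromosome 5, 150507055 to 150518164, minus strand) stood at 3465, 3690, 2365 and 3427 in null pools, against 4392, 3515 and 3813 in WT pools. Of the null pools 3 lay below every WT pool and null 2 lay above WT 2, with a log2 fold change of -0.29 (SE 0.155). Without null 3, which held the lowest value, it was -0.14, and it was -0.14 within the lower and -0.42 within the higher library numbers.

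Patl2 encodes an oocyte relative of the decapping activator PATL1 that was described as a translational repressor in Xenopus oocytes. The gene (chromosome 2, 122120108 to 122186189, minus strand) stood at 1974, 1377, 1711 and 1255 normalized counts in null pools, against 1870, 2096 and 1934 in WT pools. Null 1 was within the WT range and the other 3 null pools were below it. The log2 fold change was -0.34 (SE 0.174, fold interval 0.613 to 1.02), and -0.19 when the fit held the cumulus marker mean. Within the lower library numbers it was -0.26 and within the higher ones -0.40. Lsm14b encodes an LSM-domain protein of the stored particle that mouse oocytes need for meiotic maturation. Lsm14b (chromosome 2, 180024987 to 180035465, plus strand) stood at 66000, 65750, 63750 and 55081 in null pools, against 57123, 61765 and 57202 in WT pools. Null pools 1 to 3 lay above every WT pool and null 4 below them all. The log2 fold change was 0.091 (SE 0.0816), 0.15 without null 4 and 0.18 when the fit held the cumulus marker mean. It was 0.15 within the lower library numbers and 0.051 within the higher ones.

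The genes for a tail-binding and a cap factor both had a lower mean in null pools than in WT pools, and limma, edgeR and DESeq2 called neither. Pabpc1l encodes the embryonic poly(A)-binding protein ePAB, which mouse oocytes need to translate stored mRNA and mature. Pabpc1l (chromosome 2, 164025450 to 164050538, plus strand) stood at 3824, 2686, 2547 and 2616 normalized counts in null pools, against 3997, 3759 and 3180 in WT pools. Null 1 lay among the WT pools and apart from the other 3 null pools, all of which were below every WT pool. The log2 fold change was -0.34 (SE 0.154), and -0.47 without null 1, -0.18 without null 3 and null 4, -0.27 within the lower and -0.30 within the higher library numbers. Eif4enif1, which encodes 4E-T, lies on chromosome 11 (3202392 to 3244588, plus strand). It was at 101862, 105269, 100401 and 97733 in null pools, against 108801, 111682 and 108245 in WT pools. All null pools were below all WT pools. The means were 101316 ± 3141 in null pools (SD, n = 4) and 109576 ± 1845 in WT pools (SD, n = 3), with a log2 fold change of -0.11 (SE 0.0680). The lower and the higher range of library numbers gave -0.09 and -0.13.

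**Figure D2:**
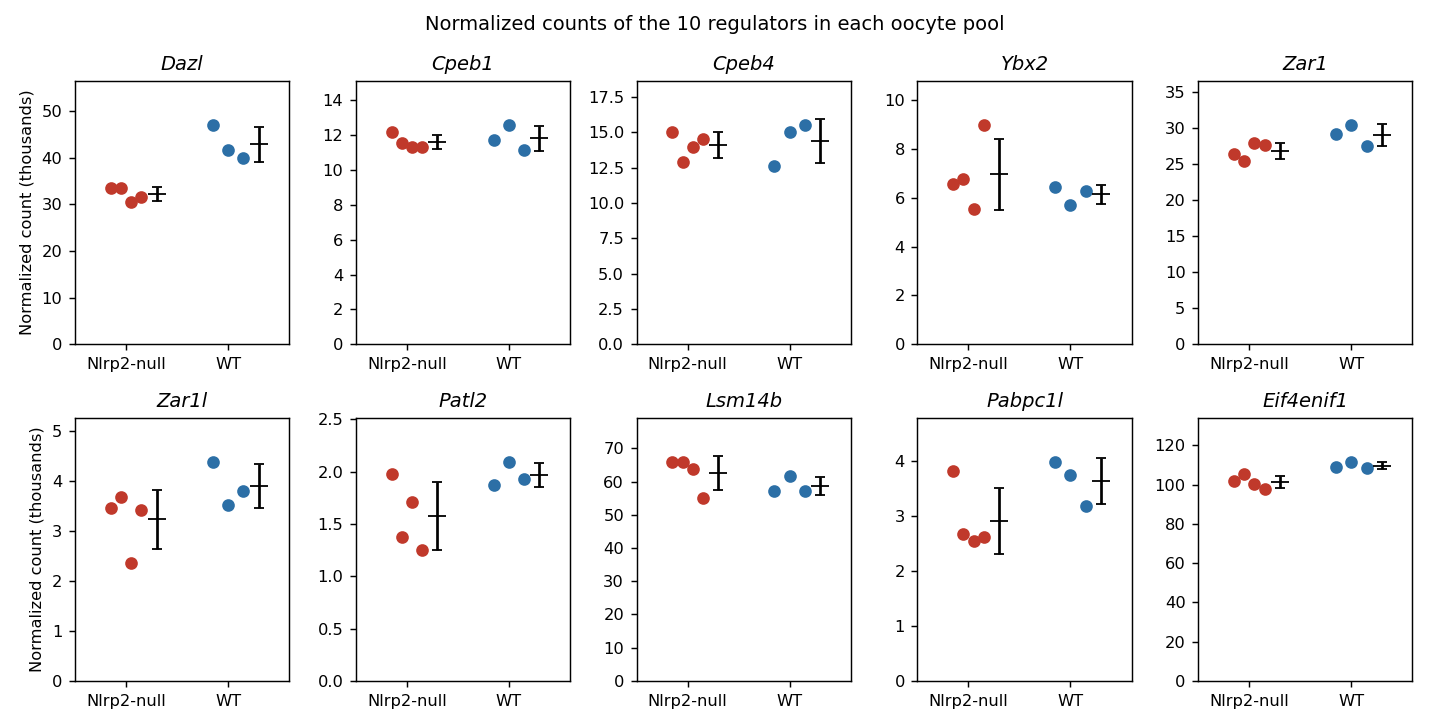
Normalized count (divided by 1000, y axis from 0) of each regulator in the 4 Nlrp2-null pools (red, left) and 3 WT pools (blue, right), 1 point per pool, with the mean and SD of each group in black. Dazl and Eif4enif1 are the genes whose groups do not overlap, and in Pabpc1l the point of null 1 (3824) lies among the WT pools.

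**Figure D3:**
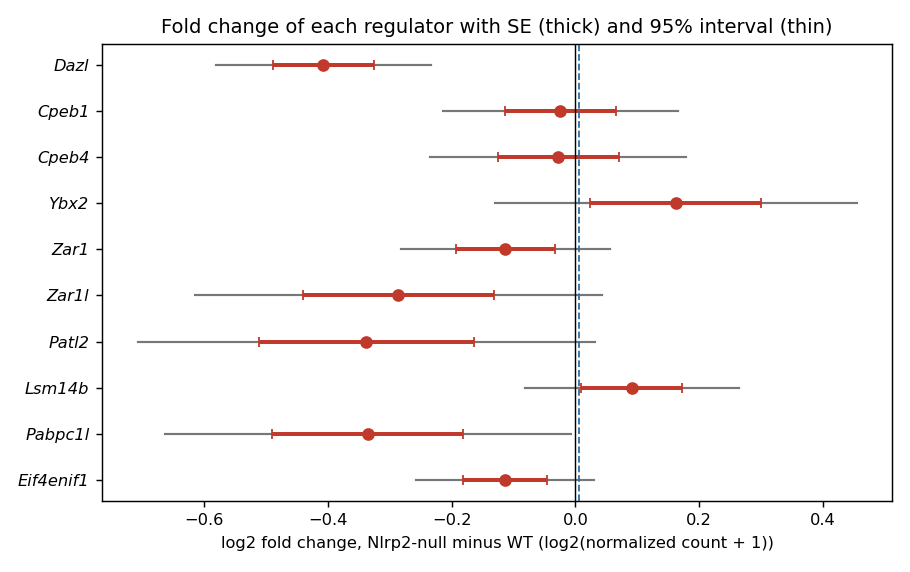
Log2 fold change of each regulator, Nlrp2-null minus WT (x axis), with its SE as the thick bar and its 95% interval as the thin line. The dashed line marks the median of all tested genes (0.0056); Dazl lies farthest to the left, at -0.41.

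Pools of the same genotype agreed closely for some of these genes, a property that does not use the difference between genotypes. The pooled SD of log2 values within groups was 0.0378 for Eif4enif1, a spread smaller than in all but 1.10% of the 91 tested genes within 0.5 log2 units of its level. It was 0.0676 for Cpeb1 and for Zar1, where 6.91% of 926 and 11.6% of 534 genes of like level had a smaller spread. Ybx2 (0.232) and Zar1l (0.248) varied more than 91.0% of 1191 and 84.2% of 1491 genes of like level. For Dazl it was 0.0928, with 35.9% of 398 genes below it. The 10 genes rest on 1199 to 131472 recovered reads per pool, so counting error is small beside these spreads.

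The levels of the 10 mRNAs can be compared with each other only per length. Per kb of exon, WT pools held on average 20296 normalized counts of Lsm14b, 17202 of Eif4enif1, 11212 of Dazl, 8381 of Zar1, 4365 of Zar1l and 3255 of Ybx2. Cpeb1 followed with 2818.1 normalized counts per kb, Cpeb4 with 2262, Pabpc1l with 1338 and Patl2 with 808. The span from the lowest to the highest was 25.1-fold, and the median of 14508 tested genes with an annotated length was 141. Lsm14b was above 99.3% of those genes and Patl2 above 77.2%. In none of the 9 neighbouring pairs of this order did the WT pools overlap. In null pools 8 of the 10 ranks were the same. Ybx2 averaged 3693 normalized counts per kb and Zar1l 3616 there, the reverse of their order in WT pools, with overlapping pools. Dazl averaged 8443 and Zar1 7748 in null pools, where null 3 held less Dazl (7997) than Zar1 (8057), whereas each WT pool held more Dazl than Zar1. With the length of the longest transcript in place of all exons, 6 genes kept their WT rank, and Eif4enif1 came before Lsm14b and Cpeb1 before Ybx2.

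**Figure D4:**
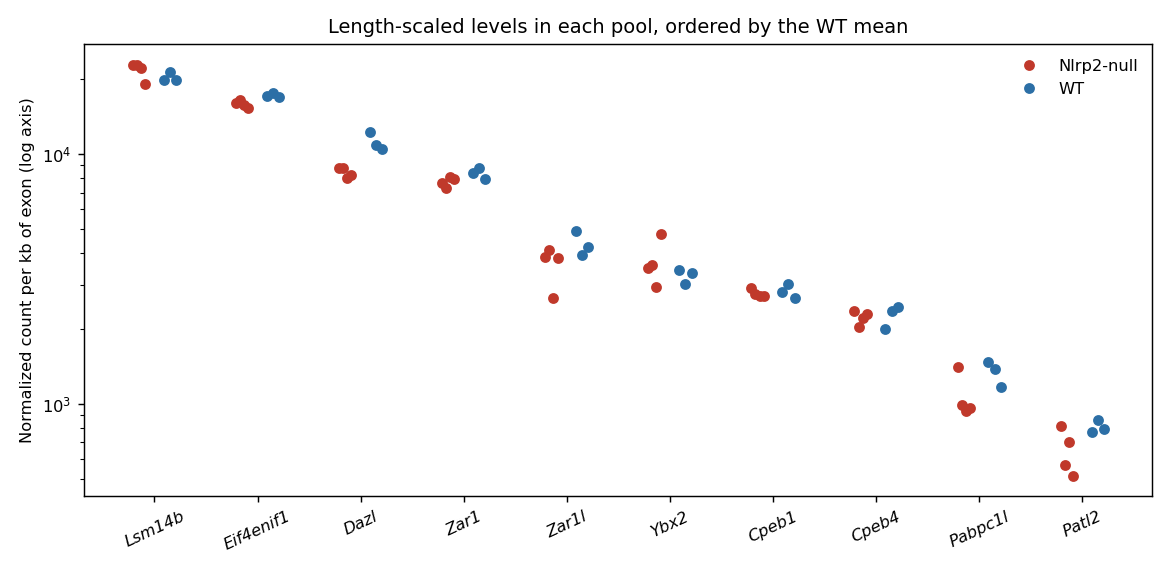
Normalized count per kb of exon (log axis) of each regulator in Nlrp2-null pools (red) and WT pools (blue), 1 point per pool, ordered by the WT mean. Levels run from about the 20296 of Lsm14b down to the 808 of Patl2 in WT pools, and the red points of Dazl and Eif4enif1 lie below all of their blue points.

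The 5 genes whose pools followed Dazl most closely were Cbx1, Gtf2f1, Mki67, Pdcd2l and Dnttip2, out of 6137 genes with a mean of at least 1000. The measure was Pearson's r of log2 values over the 7 pools, given as a description of likeness without a test, and it ran from 0.985 for Cbx1 to 0.969 for Dnttip2. The 7 points share the difference between genotypes, so a gene that differs between the groups as Dazl does ranks high. Cbx1, a heterochromatin protein gene, stood at 3718, 3648, 3379 and 3238 normalized counts in null pools, against 5224, 4391 and 4341 in WT pools. Mki67, which encodes the proliferation antigen Ki-67, stood at 63479, 66635, 61891 and 65821 in null pools, against 81456, 77029 and 74656 in WT pools. All 5 had groups that did not overlap, with null below WT, as had 5.16% of tested genes. Choosing by likeness to Dazl favours such genes, so nothing is read from this. No test is given for them, since they were chosen for their likeness to Dazl. Among the other regulators, Eif4enif1 had an r of 0.864 with Dazl and Pabpc1l 0.770, while Lsm14b had -0.378.

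The wider pathway was described by 7 lists with 107 genes, of which 106 were tested. Limma called 0 of the 106 over all genes and edgeR 0, where percent called was 0.0664 and 0.0464. DESeq2 called 2, Edc3 with higher and Btrc with lower values in null pools, where percent called was 0.763 for higher and 0.564 for lower values. An unadjusted limma p under 0.05 was reached by 6 higher and 8 lower genes, as by 5.28% and 4.93% of all tested genes. Their median log2 fold change was -0.015, beside 0.0056 over all tested genes, and 98 of the 106 lay within 0.5 of 0. Null pools lay entirely below WT pools for 9 of the 106 and entirely above them for 6. Over all tested genes these shares were 5.16% and 4.74%. The counts of unadjusted limma p under 0.05 in each list below stand beside 10.2% of all tested genes in either direction. The genes named below had the smallest p of their list in this same contrast. That choice favours genes whose groups do not overlap, so nothing is read from the lack of overlap in single genes.

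Among 12 genes of the cytoplasmic polyadenylation machinery, which lengthens tails on CPE-bearing mRNAs, none was called by limma, edgeR or DESeq2 and 1 had an unadjusted limma p under 0.05. The list median was -0.026. That gene, the poly(A) polymerase gene Papolg, stood at 23235, 22501, 18608 and 16772 normalized counts in null pools, against 24123, 25793 and 24801 in WT pools. Its null pools were all below its WT pools, with null 3 and null 4 the lowest (log2 fold change -0.31, SE 0.107, adjusted p = 0.351 by limma). It was -0.16 with the cumulus marker mean as a term and -0.12 without null 3 and null 4. Papd5, a non-canonical poly(A) polymerase gene, had -0.18 (SE 0.0866) and the CPSF subunit gene Cpsf2 had 0.16 (SE 0.106), both with overlapping groups. Cpsf2 had 0.047 without WT 1 and 0.29 when the fit held the cumulus marker mean.

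A list of 13 genes held those for cap binding and its inhibitors and, beside them, the other CPEB genes Cpeb2 and Cpeb3. None was called by limma, edgeR or DESeq2, 1 had an unadjusted limma p under 0.05, and the list median was 0.014. Angel1, which encodes an eIF4E-binding protein, stood at 5367, 4950, 6535 and 5953 normalized counts in null pools, against 3936, 4735 and 4374 in WT pools. Every null pool was above every WT pool (log2 fold change 0.39, SE 0.122), and the adjusted p in limma was 0.292. The cap-binding protein gene Eif4e was at 26215 ± 3127 in null pools (SD, n = 4) and 28319 ± 2131 in WT pools (SD, n = 3), with overlap, and its relative Eif4e2 had a log2 fold change of 0.24 (SE 0.276), which was -0.091 without WT 2.

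Poly(A) tail binding genes included 4 of 11 with an unadjusted limma p under 0.05, as had 10.2% of all tested genes. Of these, 3 were lower and 1, Larp4 (0.19, SE 0.0842), was higher. Limma, edgeR and DESeq2 called none of the 11. The list median was 0.020. Pabpn1l, an oocyte form of the nuclear poly(A)-binding protein that takes part in maternal mRNA clearance, stood at 956, 945, 721 and 903 normalized counts in null pools, against 1224, 1441 and 1097 in WT pools. Its groups did not overlap (log2 fold change -0.51, SE 0.192, adjusted p = 0.385 by limma). Larp4b, a La-related protein gene, had -0.22 (SE 0.0891), also with null pools below WT pools. Pabpc6 was low, at 17.4 ± 5.21 in null pools (SD, n = 4) and 76.4 ± 18.3 in WT pools (SD, n = 3), and as a gene with close relatives it can share reads with them.

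In the 18 genes of storage particle proteins limma and edgeR called none, DESeq2 called 1, and 2 had an unadjusted limma p under 0.05; the median was -0.0092. Fxr1, a relative of the fragile X protein, stood at 64571, 68009, 57918 and 59624 normalized counts in null pools, against 69426, 73934 and 79307 in WT pools. All null pools were below all WT pools (log2 fold change -0.25, SE 0.0808, adjusted p = 0.307 by limma). Caprin2 was below the WT range in each null pool as well, at -0.17 (SE 0.0852). Edc3, a decapping enhancer gene, was low and scattered, at 127, 23.6, 271 and 130 in null pools, against 8.43, 8.55 and 34.6 in WT pools. Null 2 was below WT 3, so the groups overlapped, and the DESeq2 adjusted p was 0.0312 against 0.292 in limma. Edc3 shares 1284 exon bases with Clk3 on the opposite strand, which stood at 2175 in null and 2040 in WT pools, and the sources used here do not say whether counting used strand. Papolg, Cpsf2, Fxr1, Zfp36l2 and Btrc also share 91 to 235 exon bases with a gene on the opposite strand.

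Other sequence-specific RNA-binding regulators numbered 21 tested of 22. Limma, edgeR and DESeq2 called none, and the median was -0.028. An unadjusted limma p under 0.05 was reached by 4 (2 in each direction), as by 10.2% of all tested genes. Marf1, a meiosis arrest gene whose loss keeps mouse oocytes from maturing, stood at 42372, 40697, 38691 and 42925 normalized counts in null pools, against 45396, 53677 and 48852 in WT pools. Its null pools were all lower (log2 fold change -0.26, SE 0.0808, adjusted p = 0.292 by limma). Rbpms2 had higher values in every null pool (0.21, SE 0.0781), as did Zfp36l2, which encodes a protein that promotes decay of mRNAs with AU-rich elements (0.63, SE 0.257). Marf1 shares 77 exon bases with Nde1 on the opposite strand.

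Among 15 kinases and ligase adaptors that act on CPEB1 or the cap complex, limma and edgeR called none, DESeq2 called 1, and 1 had an unadjusted limma p under 0.05; the median was -0.037. That gene was Btrc, whose protein is a substrate receptor of the SCF ligase and takes part in CPEB1 destruction in Xenopus oocytes. It stood at 12660, 12180, 9742 and 10745 normalized counts in null pools, against 13492, 16589 and 14658 in WT pools. The groups did not overlap (log2 fold change -0.40, SE 0.109), with an adjusted p of 0.219 by limma and 0.0379 by DESeq2, and the log2 fold change was -0.26 without null 3 and null 4. Its relative Fbxw11 had values above the WT range in every null pool (0.21, SE 0.124, and 0.14 without null 3), and the kinase gene Rps6ka3 had -0.26 (SE 0.127) with overlap.

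Target mRNAs reported for CPEB1 or DAZL had a median log2 fold change of 0.022, with 8 of 16 above and 8 below 0. Limma, edgeR and DESeq2 called none, and 1 had an unadjusted limma p under 0.05. That was Gdf9, the oocyte growth factor gene, at 281693, 250155, 266769 and 216707 normalized counts in null pools, against 219069, 236473 and 203490 in WT pools. Null 4 was within the WT range and the other null pools above it (0.20, SE 0.0888, adjusted p = 0.453 by limma). Spin1, a maternal chromatin reader gene, had 0.14 (SE 0.0917) and Tex19.1, a DAZL target in mouse oocytes, -0.18 (SE 0.133), both with overlapping groups. Leaving out 1 pool gave 0.068 (without WT 1) to 0.22 (without null 4) for Spin1, and -0.29 (without WT 1) to -0.078 (without null 1) for Tex19.1. The range over the 16 genes was -0.31 to 0.24.

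**Figure D5:**
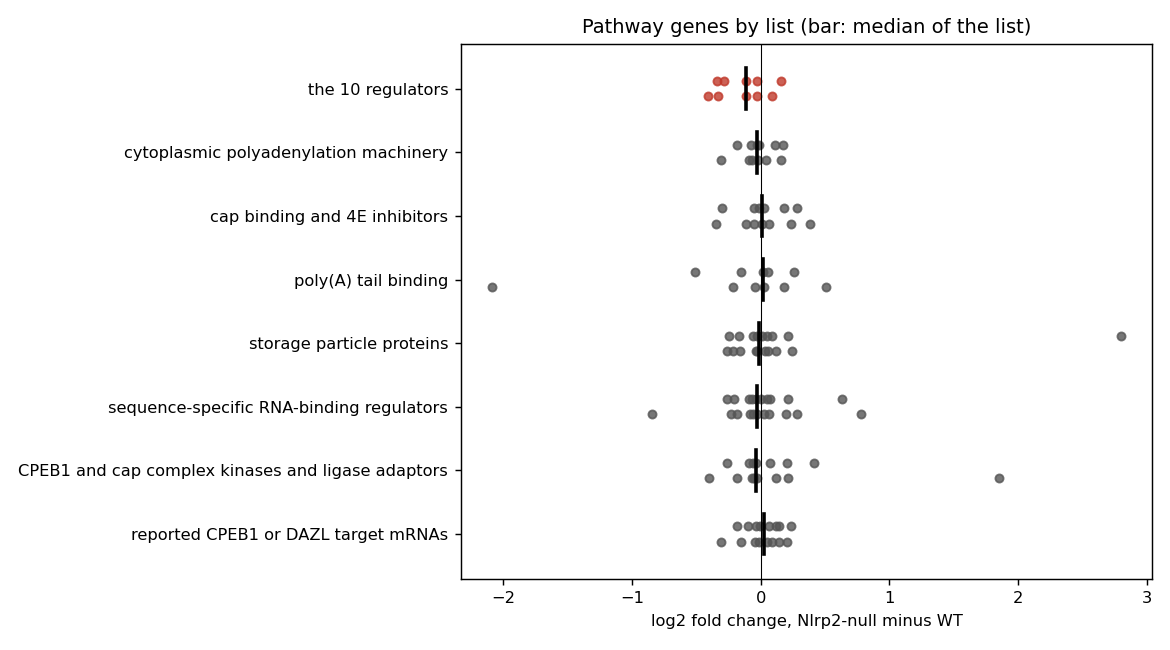
Log2 fold change, Nlrp2-null minus WT (x axis), of each tested gene of the 7 pathway lists (grey) and of the 10 regulators (red), 1 point per gene, with the median of each list as a black bar. The medians of the pathway lists run from -0.037 to 0.022 and that of the 10 regulators is -0.11; the far points, such as Edc3 at 2.80 and Pabpc6 at -2.09, are genes of low count.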

How the data were processed

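Per the file headers and names, the authors deposited a signal per gene and pool, namely counts divided by DESeq2 size factors. Dividing by each pool's smallest step gave whole reads, to within 0.01, for 100% of values. STAR 2.5.0a, TopHat2 2.0.9, HTSeq, featureCounts 1.5.0-p1, HOMER, DESeq2 1.22.2 and DESeq are named in the submitters' processing notes, with builds GRCm38 and mm10. The sources used here do not give their roles, the annotation or strand use. A second deposited table, of transcripts without gene names, was not used here. The labels do not say whether pools share animals, so p-values refer to these pools only. In limma the spread behind each p-value and SE is not that of the gene's own pools alone. It is drawn toward a trend over all genes (10.9 prior and 5 residual degrees of freedom). For Eif4enif1 the SE of 0.0680 was thus larger than the pooled SD of 0.0378 between its own pools. No pair of pools agreed within sampling noise (lowest chi-square over its degrees of freedom 36.6).

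Limma 3.58.1 (R 4.3.3, variance trend, no covariates) was fitted to log2(normalized count + 1) over the 15071 genes with a mean of at least 10, null minus WT, with Benjamini-Hochberg adjustment over all of them. This log2 scale understates the change of low genes. edgeR 4.0.16 and DESeq2 1.42.0 on recovered reads were alternatives, and limma, edgeR and DESeq2 were tested on simulated data. Intervals of folds are 95% and come from limma. The 10 regulators and the lists were chosen with earlier results of these data known. Beside the 10 and Nlrp2, the rule for named genes took the 3 smallest p per list and the 5 genes most like Dazl by Pearson's r, without predicted genes, clones and pseudogenes. Coordinates, lengths and sequences come from GENCODE vM21 (GRCm38); the annotation shows no other gene sharing exon bases with the 10 regulators.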

Additional observations from a re-analysis of the deposited data

Results flagged for a closer look

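Of 37 genes checked, 4 had 1 null pool far from the other 3, judged by the gap to its neighbour as a share of the range of the 4 null pools, against Dixon's 95% critical value. Chance flags about 1 in 20 such groups. Pabpc1l stood at 3824 normalized counts in null 1, with the other null pools at 2547 to 2686 (gap 0.891 of the range). Cpsf2 stood at 11494 in null 4, against 13551 to 13694 in the other null pools (0.935). Caprin2 stood at 11422 in null 3, against 11792 to 11835 (0.896). Fbxw11 stood at 4214 in null 3, against 3381 to 3517 (0.837).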

How the results depend on the processing

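Dazl kept its sign in all 25 alternatives, with log2 fold changes from -0.47 (equal medians) to -0.34 (without WT 1). Its groups did not overlap, so leaving out pools or splitting by library number could not change the sign, and nothing is read from it. Adjusted p values of Dazl ran from 0.000593 (DESeq2) to 0.576 (limma without null 3 and null 4). The median of the 9 other regulators stayed between -0.17 and -0.08. Of 225 values of these 9 genes under alternatives, 222 moved by less than 1 SD between replicates; the sign of Cpeb1, Cpeb4 and Zar1 was not the same throughout. The number of the 10 regulators called was 0 in limma, and 1 (Dazl) with pool quality weights and with DESeq2. Leaving out null 3 and null 4 was chosen after seeing the data. The count over all genes was 6 with equal medians, 0 without a variance trend, 68 with pool quality weights, 17 with the cumulus marker mean as a term, 200 with DESeq2 and 0 without null 3 and null 4; the cause was not tested. Leaving out 1 pool gave 2 (without null 3) to 16 (without null 1). With the replicate block it was 1 and Dazl had -0.40. Deviations of same-numbered pools had correlations of -0.163, 0.0192 and -0.0121, and those of pools with different numbers ran from -0.101 to 0.174. With so few pools this check cannot tell whether the numbers pair the pools. DESeq2 called 2 pathway genes. Of 481 values of the named pathway genes 475 kept sign and side of the threshold, and 4 changed sign: Spin1 (-0.021, quantile normalization), Eif4e (0.011 with the cumulus marker mean, 0.027 without null 3 and null 4) and Eif4e2 (-0.091 without WT 2; leaving out 1 pool gave -0.091 to 0.42). With the longest transcript as length 6 of 10 ranks were the same. The search for Dazl in the transcript table was not run, because no identifier there could be tied to it. At these read numbers the spread between pools, not depth, limits precision.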
